A study of Homo sapiens with 12 samples.

Results

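The genes described here are 43 genes of the lysosome and of autophagy, taken by name and role, with no measured threshold; earlier results of these data were known when they were chosen. By role they comprise 3 transcription factors of the TFEB family, 6 lysosomal membrane proteins, 9 proteases, 9 glycosidases or sulfatases, 5 lipid-degrading proteins, 6 subunits of the proton pump and 5 autophagy proteins. Each name matched 1 of the 60668 gene entries counted, and all 43 were among the 13972 genes tested after a filter on low counts. The lowest count of any of them in any library was 27, for WIPI1, so none entered the tests through only 1 group.

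RNA was sequenced from MOLM-13, an established human acute myeloid leukaemia line whose MLL gene is fused to AF9 and whose FLT3 gene holds an internal tandem duplication. There were 4 groups of 3 libraries, each from wells of this line after 8 days of treatment: gilteritinib with MI-3454 (the combination), MI-3454 alone, gilteritinib alone, and the solvent DMSO. MI-3454 blocks the binding of menin to MLL1, which keeps MLL-fusion target genes active, and gilteritinib inhibits the FLT3 kinase. The labels give no dose, and in both groups with MI-3454 a treatment label carries another trailing number in replicates 2 and 3, where the titles name 1 compound and were followed. The replicates were seeded as triplicates of 1 cell line, so the p-values measure the spread between wells, which may be technical.

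Lysosomes are acidic organelles in which proteases, glycosidases, sulfatases and lipases break down material delivered by endocytosis and by autophagy, the process that wraps cytoplasm in membrane and carries it to the lysosome. TFEB and its relatives TFE3 and MITF are basic helix-loop-helix factors that bind E-boxes extended into the CLEAR element near the starts of many lysosomal and autophagy genes; the kinase mTORC1, itself recruited to the lysosome by Rag GTPases, keeps TFEB and TFE3 in the cytoplasm while nutrients and growth signals are plentiful. Monocytes and macrophages are known for a large lysosomal system, whereas early myeloid cells have less of it.

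The promoter windows are shown first, because they hold the letters that the TFEB family is known to bind and because the genes that share those letters are described below. RefSeq windows (GRCh38.p14, 250 bases before to 50 bases after the annotated start) matched 33 of the 43 genes. The 8-letter CLEAR core TCACGTGA, a palindrome that reads the same on both strands, lay in 5 of these 33 (15.2%), in 11 of 117 windows of the other lysosome and autophagy genes (9.4%) and in 344 of all 35116 windows in the table (0.98%). The E-box CACGTG, which every CLEAR core contains, lay in 8 of the 33 (24.2%), in 24 of the 117 (20.5%) and in 7.26% of all windows. The core with a G before it and a C after it lay in 2 of the 33 windows, those of MCOLN1 and GAA, and in 0.353% of all windows. The 5 windows with a CLEAR core and that of CTSD, the protease with the largest rise, are printed 5′ to 3′ on the gene's own strand, with CLEAR cores and other E-boxes in capitals.
LAMP1 (chr13:113296989-113297288, plus strand): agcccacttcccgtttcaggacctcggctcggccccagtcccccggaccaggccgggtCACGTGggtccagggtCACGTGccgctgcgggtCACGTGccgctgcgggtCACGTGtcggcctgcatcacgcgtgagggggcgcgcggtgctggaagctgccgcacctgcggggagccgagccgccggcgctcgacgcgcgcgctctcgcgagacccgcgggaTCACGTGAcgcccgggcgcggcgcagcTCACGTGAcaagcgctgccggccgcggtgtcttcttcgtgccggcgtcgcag
MCOLN1 (chr19:7522374-7522673, plus strand): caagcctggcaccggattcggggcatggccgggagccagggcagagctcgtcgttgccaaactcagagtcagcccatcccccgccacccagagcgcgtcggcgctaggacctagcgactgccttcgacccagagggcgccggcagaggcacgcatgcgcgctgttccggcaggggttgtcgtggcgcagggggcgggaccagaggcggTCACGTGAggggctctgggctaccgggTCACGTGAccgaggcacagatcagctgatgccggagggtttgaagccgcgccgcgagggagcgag
CTSA (chr20:45891085-45891384, plus strand): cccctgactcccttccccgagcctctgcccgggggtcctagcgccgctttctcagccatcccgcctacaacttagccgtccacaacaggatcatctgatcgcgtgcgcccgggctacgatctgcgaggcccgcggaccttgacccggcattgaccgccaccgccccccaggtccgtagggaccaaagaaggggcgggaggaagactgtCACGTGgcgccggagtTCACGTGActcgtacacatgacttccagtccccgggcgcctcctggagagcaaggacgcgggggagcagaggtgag
GAA (chr17:80101331-80101630, plus strand): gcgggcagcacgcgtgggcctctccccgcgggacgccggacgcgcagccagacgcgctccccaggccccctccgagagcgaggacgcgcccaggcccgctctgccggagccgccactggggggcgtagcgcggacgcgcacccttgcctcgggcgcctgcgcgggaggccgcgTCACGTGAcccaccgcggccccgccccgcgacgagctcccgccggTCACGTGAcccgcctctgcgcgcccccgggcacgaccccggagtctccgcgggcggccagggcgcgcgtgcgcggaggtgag
ATP6V0D1 (chr16:67481108-67481407, minus strand): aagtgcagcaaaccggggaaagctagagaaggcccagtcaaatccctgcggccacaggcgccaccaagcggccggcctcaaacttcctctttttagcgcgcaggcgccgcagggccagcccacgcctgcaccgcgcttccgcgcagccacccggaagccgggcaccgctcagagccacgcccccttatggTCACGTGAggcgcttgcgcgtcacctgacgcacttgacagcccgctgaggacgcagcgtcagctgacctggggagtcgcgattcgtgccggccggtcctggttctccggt
CTSD (chr11:1763878-1764177, minus strand): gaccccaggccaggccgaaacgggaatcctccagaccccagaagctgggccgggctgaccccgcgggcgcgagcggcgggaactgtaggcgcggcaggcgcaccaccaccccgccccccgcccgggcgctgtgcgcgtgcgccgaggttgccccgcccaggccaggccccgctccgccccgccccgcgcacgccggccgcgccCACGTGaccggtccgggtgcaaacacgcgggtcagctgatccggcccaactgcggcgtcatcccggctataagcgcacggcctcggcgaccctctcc

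Within these windows the CLEAR cores lay close to the start. The E-box inside a core began 28 bases and 1 base before the start of LAMP1, 41 and 14 bases before that of MCOLN1, 76 and 31 bases before that of GAA, 25 bases before that of CTSA and 59 bases before that of ATP6V0D1. LAMP1 held 4 more E-boxes between 192 and 142 bases upstream, and CTSA, CTSD, CD63 and NEU1 held 1 E-box each outside any core. In the combination against DMSO, the 5 genes with a core had log2 changes between 0.57 and 1.24 with a median of 0.82 and were called higher in 5 of 5 cases by edgeR. The 3 genes with an E-box but no core, CTSD, CD63 and NEU1, had a median of 0.75, with 2 called higher, and the 25 matched genes without an E-box a median of 0.47, with 17 called higher and 2 lower; of all tested genes, 29.2% were called higher and 28.4% lower. With MI-3454 alone the medians were 0.51 for the 5 genes, 0.90 for the 3 and 0.26 for the 25, and with gilteritinib alone 0.41, 0.49 and 0.02. In the combination against gilteritinib, they were 0.60 for the 5 genes, 0.05 for the 3 and 0.61 for the 25. A match is a description of letters, not of a bound site, and no test was made.

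**Figure D1:**
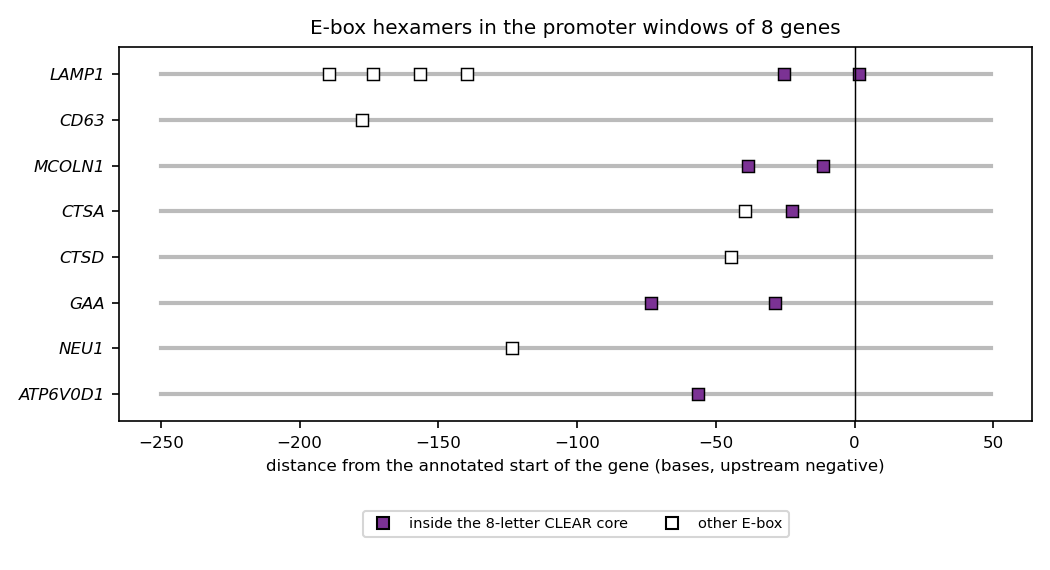
Positions of E-box hexamers (squares) along the promoter windows (grey lines) of the 8 genes that held one; the horizontal axis gives the distance from the annotated start in bases. Filled squares are E-boxes inside a CLEAR core; all of them lie within 76 bases of the start, whereas E-boxes of LAMP1, CD63 and NEU1 lie farther upstream.

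Levels are given as CPM, the counts of a gene per 1e+06 counts of its library, scaled between libraries by the trimmed mean of M-values (TMM). Gene counts summed to between 6472940 and 12051457 per library. Reads outside annotated genes made up 28.5 to 36.5% of uniquely placed reads in the combination, 17.4 to 25.5% with MI-3454, 15.6 to 17.8% with gilteritinib and 16.6 to 20.4% with DMSO. In each group 1 library had the highest share of RN7SL1, which encodes the signal recognition particle RNA: combination 1, MI-3454 3, gilteritinib 2 and DMSO 2. Of the 43 genes, 12 had their highest level in that library in all 4 groups, among them TFEB, TFE3, LAMP1, CTSD, TPP1, GAA and ULK1, and 8 had their lowest there, among them LAMP2, LIPA, ASAH1, MANBA and ATP6V1A. Counts of changed genes are therefore also given without these 4 libraries. Exons of CTSA, SQSTM1, IDUA and HEXA also overlap genes on the opposite strand, over 28.5%, 22.0%, 13.4% and 13.0% of their length, and those of IDS and TPP1 overlap same-strand genes over 17.4% and 11.6%, so their counts may be shared with these neighbours. The line's own markers CD33, PTPRC, CD4, FLT3 and LYZ were present in every library, KIT reached at most 8 counts and IL3RA had none. Reads without a unique placement were left out of gene counts, so the lack of counts for IL3RA need not mean absent RNA.

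Between genes, levels were compared per kilobase of exon, with the exons of all annotated transcripts of a gene merged. PSAP, the precursor of the saposins that help degrade sphingolipids, stood highest in every group, at 268 CPM per kilobase in the combination, 207 with MI-3454, 148 with gilteritinib and 155 with DMSO. CD63 and CTSB followed in DMSO cells at 64.4 and 64.0 CPM per kilobase, ahead of CTSZ at 50.3 and LAMP1 at 45.1. IDS, MITF and SCARB2 were lowest in DMSO cells, at 0.585, 0.676 and 0.831 CPM per kilobase. The merged exons of SCARB2 span 19341 bases, the longest of the 43 genes, so its place in this order depends on that length. Summed over the 43 genes, the level was 6454, 6523 and 7017 CPM in the combination, 5484, 5673 and 5882 CPM with MI-3454, 4436, 4576 and 4683 CPM with gilteritinib, and 4115, 4431 and 4444 CPM with DMSO. The combination and MI-3454 libraries lay apart from each other and above all others, while gilteritinib and DMSO libraries overlapped.

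The first comparison set the combination against DMSO. Lysosomal genes rose broadly: 33 of 43 were called higher and 2 lower by edgeR's quasi-likelihood test with Benjamini-Hochberg adjustment, at the threshold of 0.05 used throughout. This is 76.7% called higher, where 29.2% of all tested genes were called higher and 28.4% lower. The median log2 change was 0.64 for the 43 genes and 0.00 for all tested genes, and 9 genes rose at least 2-fold: WIPI1, CTSD, ASAH1, HEXA, MANBA, CTSA, GABARAPL1, TFE3 and NPC2. Without the 4 libraries highest in RN7SL1 the counts were 36 higher and 3 lower, and with total counts as the scaling, which moved the median of all genes by 0.10, they were 36 and 1. In bulk RNA, more cells with many lysosomes and more lysosomal RNA in each cell cannot be told apart.

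**Figure D2:**
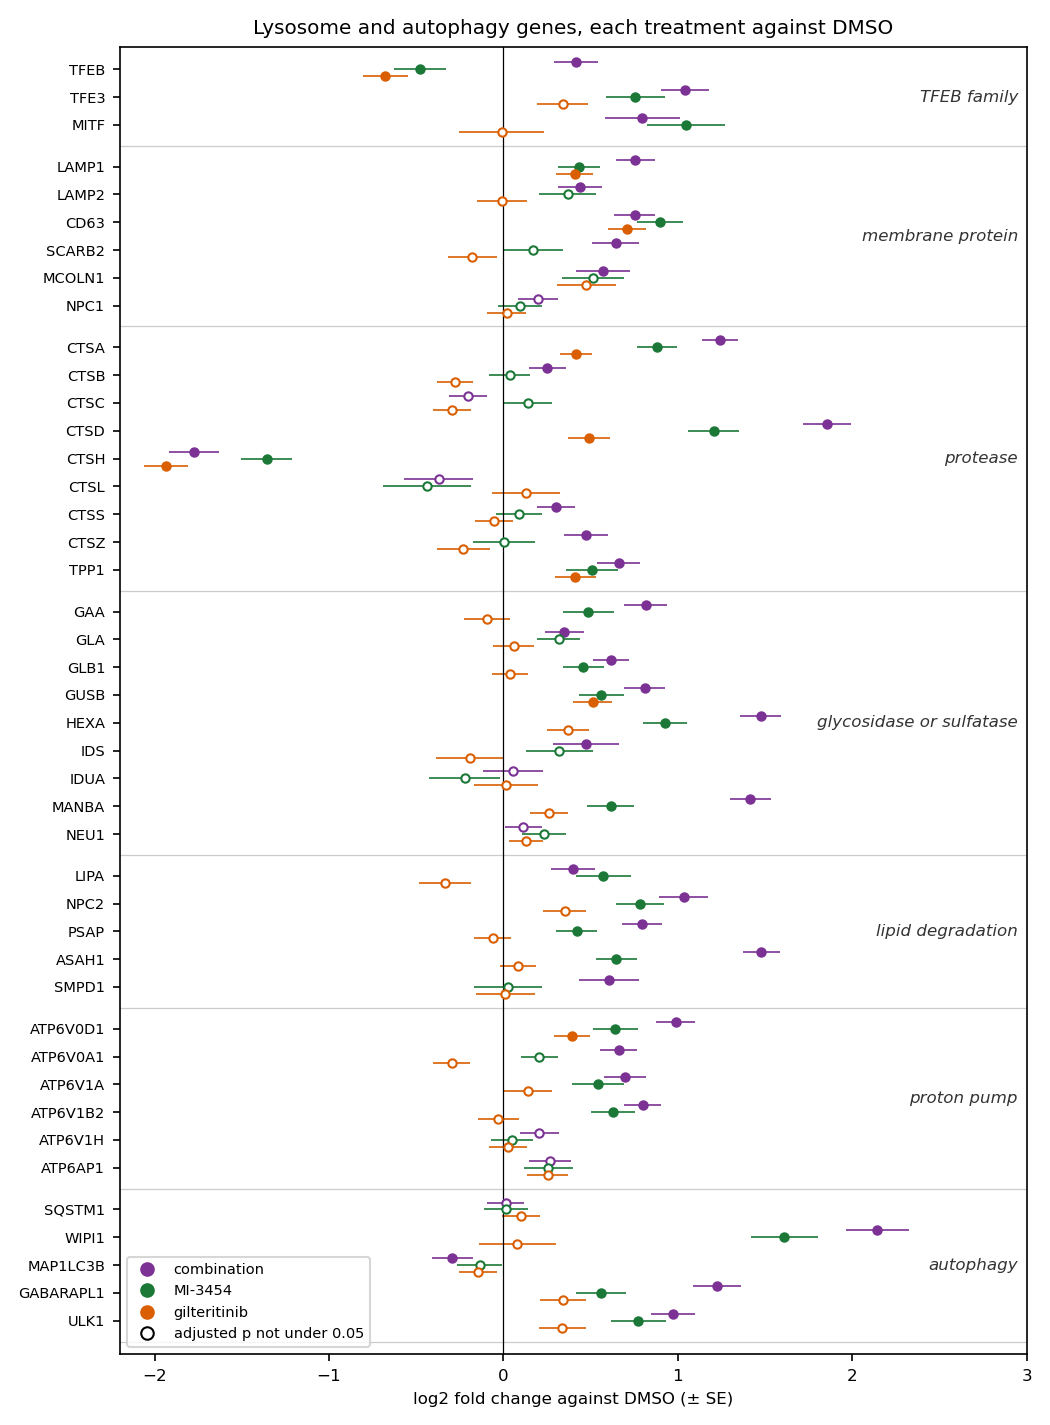
Log2 fold change of each of the 43 genes (points, ± SE) in the combination, with MI-3454 and with gilteritinib, each against DMSO; filled points have an adjusted p under 0.05, and genes are grouped by role. Most combination points lie right of 0, CTSH lies far left under all 3 treatments, and TFEB lies left with each single agent and right with the combination.

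All 3 factors of the TFEB family were higher in the combination. TFEB itself (ENSG00000112561, chr6:41683978-41736259) had 51.3, 48.9 and 44.6 CPM in the combination, against 37.4, 40.7 and 30.5 CPM in DMSO cells. The groups did not overlap, and the log2 change was 0.42 ± 0.13 (SE; adjusted p = 0.00933). This call rested on DMSO 3, without which the change was 0.31 (adjusted p = 0.0525). TFE3, its close relative encoded on the X chromosome, had 71.7, 69.8 and 61.4 CPM in the combination, against 30.4, 40.6 and 27.7 CPM with DMSO, a log2 change of 1.04 ± 0.14 (adjusted p = 6.82e-06). Every combination library lay above every DMSO library for TFE3. MITF, best known from pigment cells and osteoclasts, was scarce but also higher, at 8.09, 8.36 and 8.81 CPM against 5.18, 3.32 and 6.05 CPM in DMSO cells (log2 change 0.80 ± 0.22, adjusted p = 0.00475).

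Among the membrane proteins, 5 of 6 rose in the combination. LAMP1, a heavily glycosylated protein that lines the lysosomal membrane, had 477, 425 and 409 CPM in the combination and 241, 284 and 251 CPM in DMSO cells (log2 change 0.76 ± 0.11, adjusted p = 2.2e-05). Its levels did not overlap between the groups. LAMP2, a relative that also serves chaperone-mediated autophagy, changed by 0.44 ± 0.13 (adjusted p = 0.00663). SCARB2, the receptor that carries glucocerebrosidase to lysosomes, changed by 0.64 ± 0.14, MCOLN1, a calcium-releasing channel, by 0.57 ± 0.16, and the tetraspanin CD63 by 0.75 ± 0.12. NPC1, which exports cholesterol, had 57.5 ± 3.67 CPM in the combination and 50.1 ± 5.45 CPM in DMSO cells (SD, n = 3 each; adjusted p = 0.147).

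The proteases split. CTSD, the main aspartic protease of lysosomes (ENSG00000117984, chr11:1752752-1764573), had 218, 173 and 157 CPM in the combination, against 52.1, 57.2 and 41.9 CPM in DMSO cells. The lowest combination library stood far above the highest DMSO library, and the rise was 3.62-fold (log2 change 1.86 ± 0.14, adjusted p = 8.02e-09). Exons of CTSD overlap an annotated readthrough gene on the same strand over 41.7% of their length. Reads there may have been set aside as ambiguous, so the counts of CTSD may be incomplete. CTSA, a carboxypeptidase that also protects neuraminidase and β-galactosidase, had 227, 205 and 202 CPM in the combination, against 88.4, 91.4 and 88.8 CPM in DMSO cells (log2 change 1.24 ± 0.10, adjusted p = 2.87e-08). TPP1, a tripeptidyl peptidase, changed by 0.66 ± 0.12, and CTSZ, a carboxypeptidase, by 0.47 ± 0.13. CTSS, the protease that trims the invariant chain in antigen-presenting cells, and CTSB, an abundant cysteine protease, had smaller changes of 0.30 ± 0.11 and 0.25 ± 0.10. The CTSB call ended without any of 5 of the 6 libraries, DMSO 2 being the exception (adjusted p up to 0.158), with DESeq2 size factors (0.0579), with no filter (0.273) and when replicate numbers were blocked (0.0601). The CTSS call ended without DMSO 3 or any combination library (adjusted p up to 0.0834) and with no filter (0.151).

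CTSH went the other way. This aminopeptidase (ENSG00000103811, chr15:78921058-78949574) had 9.91, 8.57 and 12.1 CPM in the combination, against 32.1, 36.2 and 35.4 CPM in DMSO cells, a 3.42-fold fall (log2 change -1.77 ± 0.15, adjusted p = 2.59e-08). No combination library came near a DMSO library. CTSC, which activates the serine proteases of granules, had 155 ± 3.88 CPM in the combination and 178 ± 19.9 CPM in DMSO cells, and CTSL, another cysteine protease, 7.82 ± 1.07 and 10.2 ± 2.41 CPM (SD, n = 3 each); neither passed the test (adjusted p = 0.119 and 0.121).

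Of the 9 glycosidases and sulfatases, 7 rose in the combination. HEXA, the α subunit of β-hexosaminidase that is defective in Tay-Sachs disease, had 85.7, 87.8 and 99.9 CPM in the combination, against 31.7, 36.4 and 29.9 CPM in DMSO cells (log2 change 1.47 ± 0.12, adjusted p = 1.62e-08). MANBA, β-mannosidase, had 91.5, 99.2 and 111 CPM in the combination, against 40.8, 34.3 and 37.6 CPM with DMSO (log2 change 1.42 ± 0.12, adjusted p = 2.32e-08). Both genes more than doubled, with no overlap between the groups. GAA, the acid α-glucosidase that degrades glycogen, changed by 0.82 ± 0.12, GUSB, β-glucuronidase, by 0.81 ± 0.12, and GLB1, β-galactosidase, by 0.62 ± 0.10. Smaller changes were measured for IDS, a sulfatase of heparan and dermatan sulfate, at 0.47 ± 0.19, and for GLA, α-galactosidase A, at 0.35 ± 0.11; the IDS call ended without any of 5 of the 6 libraries, DMSO 2 being the exception, and with DESeq2 (adjusted p = 0.0999), and the GLA call ended without combination 1 (adjusted p = 0.0594). IDUA, which removes iduronic acid, and the neuraminidase NEU1 had log2 changes of 0.05 ± 0.17 and 0.11 ± 0.11 that did not pass.

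All 5 genes of lipid degradation rose in the combination. ASAH1, acid ceramidase, had 302, 307 and 324 CPM in the combination, against 118, 102 and 115 CPM in DMSO cells, a 2.79-fold rise (log2 change 1.48 ± 0.11, adjusted p = 4.83e-09). The groups were far apart and the spread within each was narrow. PSAP had 967, 831 and 807 CPM in the combination and 516, 526 and 461 CPM in DMSO cells (log2 change 0.79 ± 0.11, adjusted p = 1.63e-05). It also held the highest count of any member. NPC2, the soluble partner of NPC1 in cholesterol export, changed by 1.03 ± 0.14, SMPD1, acid sphingomyelinase, by 0.61 ± 0.17, and LIPA, lysosomal acid lipase, by 0.40 ± 0.12.

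Of the 6 subunits chosen from the proton pump that acidifies lysosomes, 4 were called higher, where 29.2% of all tested genes were. Of the 13 other pump subunits tested, 3 were called higher (23.1%). ATP6V0D1, a subunit of the membrane sector, had 161, 137 and 141 CPM in the combination and 70.5, 81.6 and 69.3 CPM in DMSO cells (log2 change 0.99 ± 0.11, adjusted p = 9.84e-07). The catalytic-sector subunits ATP6V1B2 and ATP6V1A changed by 0.80 ± 0.11 and 0.70 ± 0.12, and ATP6V0A1, one of several exchangeable large subunits of the membrane sector, by 0.66 ± 0.10. ATP6AP1, an accessory protein, and ATP6V1H, a regulatory subunit, had log2 changes of 0.27 ± 0.12 and 0.21 ± 0.11 with adjusted p = 0.0668 and 0.124.

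The autophagy proteins held both the steepest rise and members without one. WIPI1, a phosphoinositide-binding protein of early autophagosomes (ENSG00000070540, chr17:68420948-68457513), had 15.3, 16.1 and 15.1 CPM in the combination, against 3.64, 3.89 and 2.92 CPM in DMSO cells, a 4.42-fold rise (log2 change 2.14 ± 0.18, adjusted p = 3.56e-08). The groups were far apart. Of its exon length, 28.1% overlaps genes on the opposite strand. The sources used here do not give the strand setting of the counting. It is therefore not known whether reads there were counted for WIPI1 or set aside as ambiguous. GABARAPL1, a ubiquitin-like protein coupled to autophagosome membranes, had 29.2, 31.8 and 36.2 CPM against 13.7, 15.0 and 12.6 CPM in DMSO cells (log2 change 1.22 ± 0.14, adjusted p = 1.01e-06). ULK1, the kinase that starts autophagy, changed by 0.97 ± 0.13 (adjusted p = 5.92e-06). In contrast, MAP1LC3B, the standard autophagosome marker LC3B, was lower at 39.2 ± 3.59 CPM in the combination against 48.0 ± 3.4 CPM in DMSO cells (SD, n = 3 each; log2 change -0.29 ± 0.12, adjusted p = 0.0401), and this call ended without any of DMSO 1, DMSO 3, combination 1 or combination 3 (adjusted p between 0.0855 and 0.144). SQSTM1, the cargo receptor p62, had 313, 284 and 277 CPM in the combination and 291, 311 and 264 CPM in DMSO cells (log2 change 0.01 ± 0.11, adjusted p = 0.93), and the groups overlapped.

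**Figure D3:**
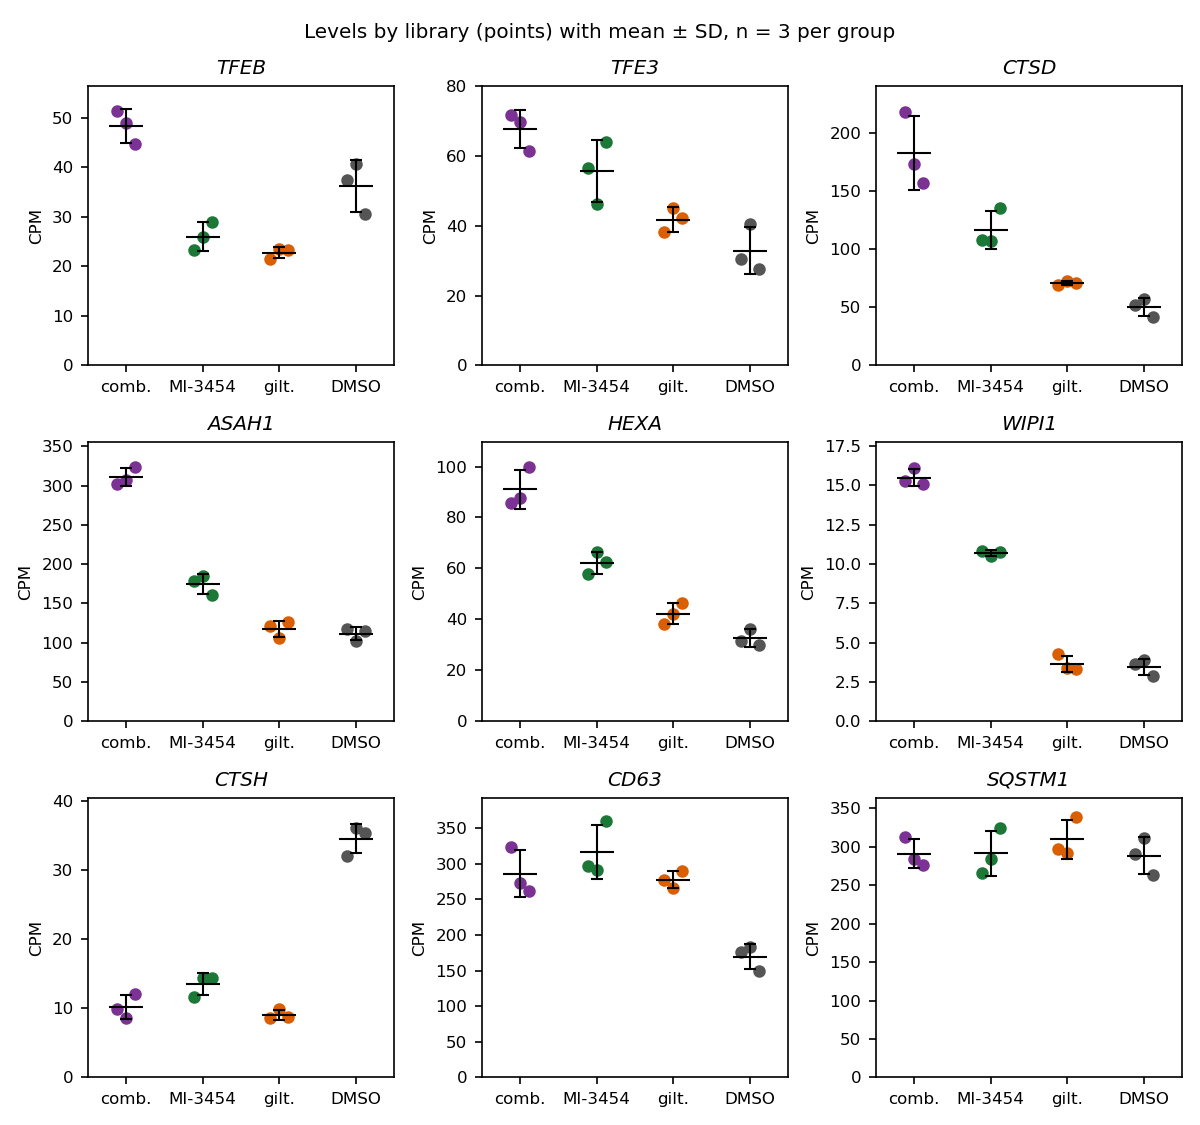
CPM of 9 genes in each library (points) with mean and SD (bars, n = 3), for the combination (comb.), MI-3454, gilteritinib (gilt.) and DMSO; each vertical axis starts at 0. TFEB, TFE3, CTSD, ASAH1, HEXA and WIPI1 are highest in the combination, CTSH is highest in DMSO cells, CD63 is lowest in DMSO cells, and SQSTM1 overlaps across all groups.

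MI-3454 alone was compared with DMSO next; this comparison and the 2 others against DMSO share the same 3 DMSO libraries. With MI-3454, 22 of the 43 genes were called higher and 2 lower, where 10.1% of all tested genes were called higher and 8.95% lower. The share of the 43 called higher was 51.2%, and their median log2 change was 0.43, against 0.00 for all tested genes. Counts by role were 2 higher and 1 lower of 3 in the TFEB family, 2 higher of 6 membrane proteins, 3 higher and 1 lower of 9 proteases, 5 higher of 9 glycosidases and sulfatases, 4 higher of 5 lipid-degrading proteins, 3 higher of 6 pump subunits and 3 higher of 5 autophagy proteins. Leaving out DMSO 3 lowered the count to 14 higher, and leaving out the 4 libraries highest in RN7SL1 gave 25 higher and 2 lower.

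The steepest rises with MI-3454 were those of WIPI1, CTSD and MITF. WIPI1 had 10.8, 10.5 and 10.8 CPM with MI-3454, against 3.64, 3.89 and 2.92 CPM with DMSO (log2 change 1.61 ± 0.19, adjusted p = 8.26e-05). CTSD had 108, 107 and 135 CPM with MI-3454 and 52.1, 57.2 and 41.9 CPM with DMSO (log2 change 1.21 ± 0.15, adjusted p = 9.72e-05). MITF had 9.38, 9.78 and 10.8 CPM with MI-3454, against 5.18, 3.32 and 6.05 CPM with DMSO (log2 change 1.04 ± 0.22, adjusted p = 0.00601). None of these 3 genes overlapped between the groups. HEXA, CD63 and CTSA followed with log2 changes of 0.93 ± 0.13, 0.90 ± 0.13 and 0.88 ± 0.12. ULK1 and TFE3 rose by 0.77 ± 0.16 and 0.76 ± 0.17.

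CTSH and TFEB were the genes called lower with MI-3454. CTSH had 11.6, 14.4 and 14.3 CPM with MI-3454, against 32.1, 36.2 and 35.4 CPM with DMSO (log2 change -1.36 ± 0.14, adjusted p = 3.21e-05). TFEB had 23.2, 25.8 and 28.9 CPM with MI-3454, against 37.4, 40.7 and 30.5 CPM with DMSO, a log2 change of -0.48 ± 0.15 (adjusted p = 0.0415). The TFEB groups nearly met, and the call ended without any of DMSO 1, DMSO 2, MI-3454 1 or MI-3454 2 (adjusted p between 0.101 and 0.167). Calls for GAA, PSAP, TPP1, LAMP1, LIPA, ATP6V1A, GABARAPL1, GLB1 and GUSB, all higher with adjusted p between 0.00943 and 0.0375, also ended without 1 or more libraries.

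Gilteritinib alone moved few of these genes in the unpaired test: 7 of 43 were called higher and 2 lower, where 6.92% of all tested genes were called higher and 8.18% lower. The median log2 change of the 43 was 0.06. The 7 were CD63 and LAMP1 among membrane proteins, CTSA, CTSD and TPP1 among proteases, GUSB and ATP6V0D1, and no gene of lipid degradation or autophagy passed. With the replicate number as a block, 15 were called higher and 7 lower. All tested genes then gave 2474 higher and 2454 lower calls, against 967 and 1143 in the unpaired test. Same-numbered libraries correlated at 0.14, 0.39 and 0.11 in their deviations across genes, but gilteritinib 1 correlated with DMSO 3 at 0.21. The value of 0.39 joined gilteritinib 2 and DMSO 2, which are also the libraries highest in RN7SL1 in their groups. Whether the numbers mark pairs was not settled. The block added TFE3, MCOLN1, HEXA, MANBA, NPC2, ATP6AP1, GABARAPL1 and ULK1 among higher and CTSB, CTSC, CTSZ, LIPA and ATP6V0A1 among lower genes, with log2 changes between -0.34 and 0.49. Without the 4 libraries highest in RN7SL1 the unpaired counts were 14 higher and 5 lower. Without DMSO 2 they were 14 and 4, without DMSO 1 or gilteritinib 3 there were 2 higher, without DMSO 3 there were 3, and without gilteritinib 1 or gilteritinib 2 there were 4.

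The clearest changes with gilteritinib were in CTSH, CD63 and TFEB. CTSH had 8.53, 9.85 and 8.81 CPM with gilteritinib, against 32.1, 36.2 and 35.4 CPM with DMSO, a 3.82-fold fall (log2 change -1.94 ± 0.13, adjusted p = 1.07e-06). CD63 had 277, 266 and 290 CPM with gilteritinib, against 176, 183 and 149 CPM with DMSO (log2 change 0.71 ± 0.11, adjusted p = 0.000891). TFEB had 21.4, 23.5 and 23.2 CPM with gilteritinib, against 37.4, 40.7 and 30.5 CPM with DMSO (log2 change -0.68 ± 0.13, adjusted p = 0.00459). None of these 3 overlapped between the groups, and their calls held without any single library. CTSD had 69.4, 72.6 and 70.9 CPM with gilteritinib (log2 change 0.49 ± 0.12, adjusted p = 0.0161), a call that ended without DMSO 1, DMSO 3 or gilteritinib 3. WIPI1, by contrast, had 4.26, 3.40 and 3.30 CPM, and its groups overlapped (log2 change 0.08 ± 0.22, adjusted p = 0.853).

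The combination was then set against each single agent. Against MI-3454, 16 of the 43 genes were higher and 1 lower, where 14.1% of all tested genes were called higher and 15.1% lower (1972 and 2103 genes, or 2472 and 1437 with total counts, which moved the median of all genes by 0.09); the other 26 did not pass. Against gilteritinib, 31 were higher and 1 lower, where 30.1% of all genes were higher and 30.3% lower (4210 and 4229 genes, or 5010 and 3140 with total counts, which moved the median of all genes by 0.13). The 43 genes had median log2 changes of 0.22 against MI-3454 and 0.60 against gilteritinib. These comparisons share the combination libraries.

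Against MI-3454, TFEB stood out, with a log2 change of 0.90 ± 0.12 (adjusted p = 0.000224) and no overlap between 44.6 to 51.3 CPM in the combination and 23.2 to 28.9 CPM with MI-3454. ASAH1 had 302, 307 and 324 CPM in the combination and 179, 185 and 161 CPM with MI-3454 (log2 change 0.84 ± 0.10, adjusted p = 0.000105), and MANBA had 91.5, 99.2 and 111 CPM against 57.2, 65.4 and 50.0 CPM with MI-3454 (0.81 ± 0.12, adjusted p = 0.000554). Both genes were separated by wide gaps. GABARAPL1 followed at 0.67 ± 0.12, CTSD at 0.66 ± 0.14, SMPD1 at 0.59 ± 0.16 and HEXA at 0.56 ± 0.10. The single lower gene, CTSC, changed by -0.34 ± 0.11 (adjusted p = 0.0371). The CTSC call ended without any library of these groups except MI-3454 3, with the replicate block and with total counts. The count of higher genes fell to 9 without MI-3454 1, MI-3454 2 or combination 1 and to 7 without combination 2, and it was 22 without the 4 libraries highest in RN7SL1.

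Against gilteritinib, WIPI1 had 15.3, 16.1 and 15.1 CPM in the combination, against 4.26, 3.40 and 3.30 CPM with gilteritinib (log2 change 2.07 ± 0.16, adjusted p = 7.84e-08). ASAH1 changed by 1.40 ± 0.09, CTSD by 1.37 ± 0.11, MANBA by 1.16 ± 0.09, HEXA by 1.11 ± 0.09 and TFEB by 1.10 ± 0.09. These 6 genes at least doubled. CD63, with 324, 272 and 262 CPM in the combination and 277, 266 and 290 CPM with gilteritinib, overlapped fully (0.05 ± 0.10, adjusted p = 0.664), and CTSH overlapped as well (0.17 ± 0.16, adjusted p = 0.373). CTSL was the single lower gene, at -0.49 ± 0.17 (adjusted p = 0.0205). This call ended without any of gilteritinib 1, gilteritinib 2, combination 2 or combination 3, in 1 fit of all libraries and with total counts.

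An interaction term then asked whether the combination lay above or below the sum of both single log2 changes. It passed in 9 of 43 genes, 8 above the sum and 1 below, where 6.55% of all tested genes were above and 8.74% below; the counts over all genes were 915 and 1221, and 1120 and 808 with total counts, which gave a median of 0.11 over all genes in place of -0.02. TFEB was the most distant, at 1.57 ± 0.17 above the sum (adjusted p = 2.03e-05): it was lower with each agent and higher with both. As given above, its calls against DMSO with MI-3454 and in the combination ended when certain single libraries were left out. CTSH lay 1.52 ± 0.20 above the sum (adjusted p = 0.000135), with 8.57 to 12.1 CPM in the combination, 11.6 to 14.4 CPM with MI-3454 and 8.53 to 9.85 CPM with gilteritinib, all below the lowest DMSO library at 32.1 CPM. CD63 lay below it, at -0.85 ± 0.16 (adjusted p = 0.00247), with 324, 272 and 262 CPM in the combination, 297, 292 and 359 CPM with MI-3454, 277, 266 and 290 CPM with gilteritinib, and 176, 183 and 149 CPM with DMSO. All treated libraries of CD63 stood above DMSO; the combination overlapped with each single agent, whereas the highest gilteritinib library lay just below the lowest MI-3454 library.

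ASAH1 and ATP6V0A1 each lay 0.75 ± 0.13 above the sum (adjusted p = 0.00173 and 0.00157). ATP6V0A1 had 108, 118 and 127 CPM in the combination, 83.5, 85.5 and 87.9 CPM with MI-3454, 60.1, 54.0 and 67.4 CPM with gilteritinib, and 71.3, 75.4 and 76.4 CPM with DMSO. Its 4 groups did not overlap, and gilteritinib libraries were lowest. SCARB2 at 0.65 ± 0.20, MANBA at 0.54 ± 0.16, CTSB at 0.49 ± 0.13 and PSAP at 0.44 ± 0.14 completed the set; the SCARB2, MANBA and PSAP calls ended without 1 or more libraries (adjusted p up to 0.0779, 0.0732 and 0.0993). The other 34 genes, WIPI1 and CTSD included, did not pass.

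**Figure D4:**
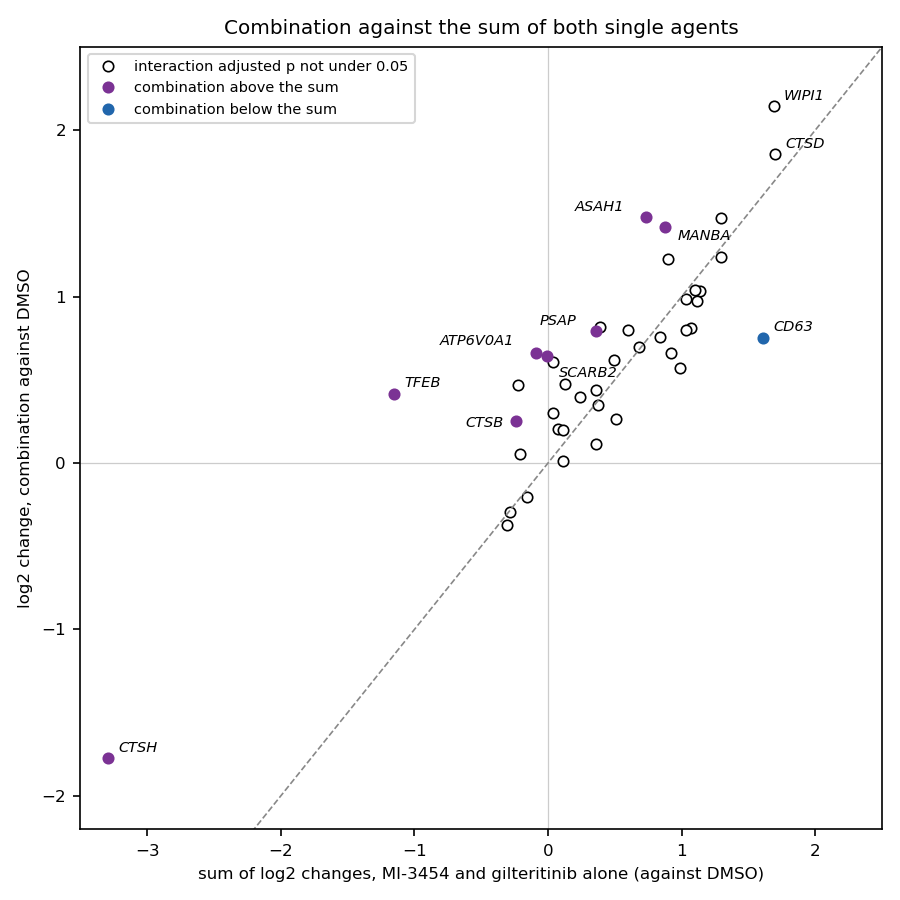
For each of the 43 genes, the log2 change in the combination (vertical) against the sum of the log2 changes with MI-3454 and with gilteritinib (horizontal), all against DMSO; the dashed line marks equality. Filled points passed the interaction test: 8 lie above the line, TFEB and CTSH farthest, and CD63 lies below it.

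Summed markers of monocytes and of primary granules lay above DMSO under all 3 treatments. Monocyte markers summed to 782 to 784 CPM in the combination, 582 to 633 CPM with MI-3454, 155 to 163 CPM with gilteritinib and 130 to 140 CPM with DMSO. Of the 9 tested monocyte markers, 8 were higher in the combination, 9 with MI-3454 and 3 with gilteritinib, each against DMSO. Of all tested genes, 29.2%, 10.1% and 6.92% were called higher. With gilteritinib the other 6 monocyte markers did not pass. Their log2 changes ran from -2.71 for CD14 and -1.86 for S100A8 to 2.69 for FCN1. CYBB averaged 404 CPM in the combination, 247 CPM with MI-3454, 29.3 CPM with gilteritinib and 11.7 CPM with DMSO, and CD163 had no count in any library. The 8 markers of the line itself summed to 14204 to 15413 CPM in the combination, 8264 to 9918 CPM with MI-3454, 1805 to 2058 CPM with gilteritinib and 1653 to 1905 CPM with DMSO. Most of the difference came from LYZ, which encodes lysozyme and averaged 13522 CPM in the combination, 7847 CPM with MI-3454, 683 CPM with gilteritinib and 415 CPM with DMSO. FLT3, from the same list, went the other way and was called lower under all 3 treatments, averaging 191 CPM in the combination, 228 CPM with MI-3454, 521 CPM with gilteritinib and 698 CPM with DMSO (log2 changes of -1.87, -1.61 and -0.42 against DMSO). ANPEP, also from this list, was called higher under all 3 treatments. Its log2 changes were 4.08 in the combination, 4.44 with MI-3454 and 1.70 with gilteritinib. Primary granule markers summed to 8490 to 11246 CPM in the combination, 10399 to 15772 CPM with MI-3454, 7809 to 10805 CPM with gilteritinib and 4541 to 6503 CPM with DMSO. In this sum the 3 treated groups overlapped. Of the 6 primary granule markers, 6 were called higher in the combination, 6 with MI-3454 and 3 with gilteritinib, each against DMSO. With gilteritinib CTSG, MS4A3 and PRTN3 did not pass, at log2 changes of -0.21, 0.27 and 0.51. The part of the marker genes in the lysosomal changes was not tested. Erythroid markers summed to at most 0.103 CPM in any library, stromal and epithelial markers to 2.96 to 3.81 CPM in the combination, 3.24 to 3.91 CPM with MI-3454, 5.60 to 7.90 CPM with gilteritinib and 4.10 to 7.31 CPM with DMSO. Lymphoid markers summed to 23.9 to 28.6 CPM in the combination, 31.0 to 37.7 CPM with MI-3454, 18.6 to 23.9 CPM with gilteritinib and 21.6 to 23.2 CPM with DMSO, mostly from NCAM1, while MS4A1 had no count.

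Beyond the 43, a further 148 genes of the same pathways were examined in 8 lists, of which 136 were tested. In the combination against DMSO 64 were called higher and 21 lower (47.1% and 15.4%), where all tested genes gave 29.2% and 28.4%. With MI-3454 the counts were 28 and 10 (20.6% and 7.35%, against 10.1% and 8.95% of all tested genes). With gilteritinib they were 11 and 13, and these shares of 8.09% and 9.56% were close to the 6.92% and 8.18% of all tested genes. Of the 27 other lysosomal hydrolases tested, 23 were higher and 0 lower in the combination, 14 and 0 with MI-3454, and 5 and 2 with gilteritinib. FUCA1, α-fucosidase, averaged 102 ± 4.9 CPM in the combination and 16.2 ± 2.4 CPM in DMSO cells (SD, n = 3 each; log2 change 2.65 ± 0.13, adjusted p = 2.61e-11). SGSH, which cleaves heparan sulfate, changed by 1.97 ± 0.28, CTSK, the collagen-degrading cathepsin of osteoclasts, by 1.63 ± 0.21 and DNASE2, the lysosomal nuclease, by 1.53 ± 0.12.

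Lists of the membrane and of protein sorting held calls in both directions in the combination. Among 18 other membrane proteins 9 were higher and 4 lower (50% and 22.2%, where all tested genes gave 29.2% and 28.4%), with CLN3 at 2.15 ± 0.17 and the amino acid transporter SLC36A1 at 1.66 ± 0.11, and with the cystine exporter CTNS at -1.22 ± 0.13 and LAPTM4B at -1.16 ± 0.12. Among 12 sorting genes 6 were higher and 4 lower, and the lower share of 33.3% was near that of all tested genes. Both VPS10-domain sorting receptors moved apart: SORL1 averaged 457 ± 42 CPM in the combination and 31.5 ± 3.2 CPM in DMSO cells (3.86 ± 0.13, adjusted p = 5.02e-13), whereas SORT1 averaged 106 ± 3.9 and 244 ± 26 CPM (-1.20 ± 0.11, adjusted p = 9.71e-08). The subunits of the enzyme that builds the mannose 6-phosphate tag also diverged, GNPTG at 0.82 ± 0.12 and GNPTAB at -0.82 ± 0.12. Of 13 other pump subunits 3 were higher and 1 lower (23.1% and 7.69%), with a median log2 change of 0.15. The largest change was that of ATP6V0C, which forms the proton-carrying ring, at 1.86 ± 0.47 (adjusted p = 0.00304), with low levels of 1.41 ± 0.53 CPM in the combination and 0.396 ± 0.13 CPM with DMSO (SD, n = 3 each) that rest on 41 and 12 counts in all. Exon overlap with other genes was not checked for ATP6V0C, so its true level is uncertain. ATP6AP2, an accessory protein, changed by 0.77 ± 0.12.

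The other autophagy lists gave calls in both directions in the combination against DMSO. For initiation and nucleation, conjugation and receptors, 25%, 35.7% and 33.3% were higher and 12.5%, 7.14% and 33.3% lower. All tested genes gave 29.2% and 28.4%, so the higher shares lay near that of all genes. Of 16 initiation and nucleation genes, 4 were higher and 2 lower in the combination, with ATG14, a subunit of the phosphatidylinositol 3-kinase complex, at 0.73 ± 0.15 and ATG101, of the ULK1 complex, at -0.90 ± 0.14. Of 14 conjugation genes 5 were higher and 1 lower, with ATG16L2 at 1.50 ± 0.11, the E1-like enzyme ATG7 at 1.00 ± 0.10 and GABARAP at 0.97 ± 0.24. Of 9 receptors 3 were higher and 3 lower: NCOA4, which delivers ferritin to lysosomes, averaged 679 ± 29 CPM in the combination and 245 ± 24 CPM with DMSO (1.47 ± 0.11), while BNIP3 and OPTN, receptors for mitochondria, changed by -2.44 ± 0.14 and -1.80 ± 0.21.

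Genes of the mTORC1 and Rag machinery that controls TFEB included the largest change of all 8 lists. In the combination 11 of 27 were higher and 6 lower (40.7% and 22.2%, where all tested genes gave 29.2% and 28.4%). DDIT4, an mTORC1 inhibitor induced by stress, averaged 13.3 ± 3.5 CPM in the combination and 418 ± 72 CPM in DMSO cells (SD, n = 3 each; log2 change -4.95 ± 0.18, adjusted p = 1.11e-12). The sestrins, which sense amino acids, went opposite ways, with SESN3 at 129 ± 7.4 CPM in the combination against 12.4 ± 3.0 CPM with DMSO (3.37 ± 0.15) and SESN2 at 26.3 ± 0.66 against 140 ± 18 CPM with DMSO (-2.41 ± 0.12). MLST8, a core mTOR subunit, changed by -1.24 ± 0.13. With MI-3454 this list gave 1 higher and 2 lower calls (3.7% and 7.41%, against 10.1% and 8.95% of all tested genes), and with gilteritinib 0 higher and 4 lower (14.8% lower, against 8.18%).

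**Figure D5:**
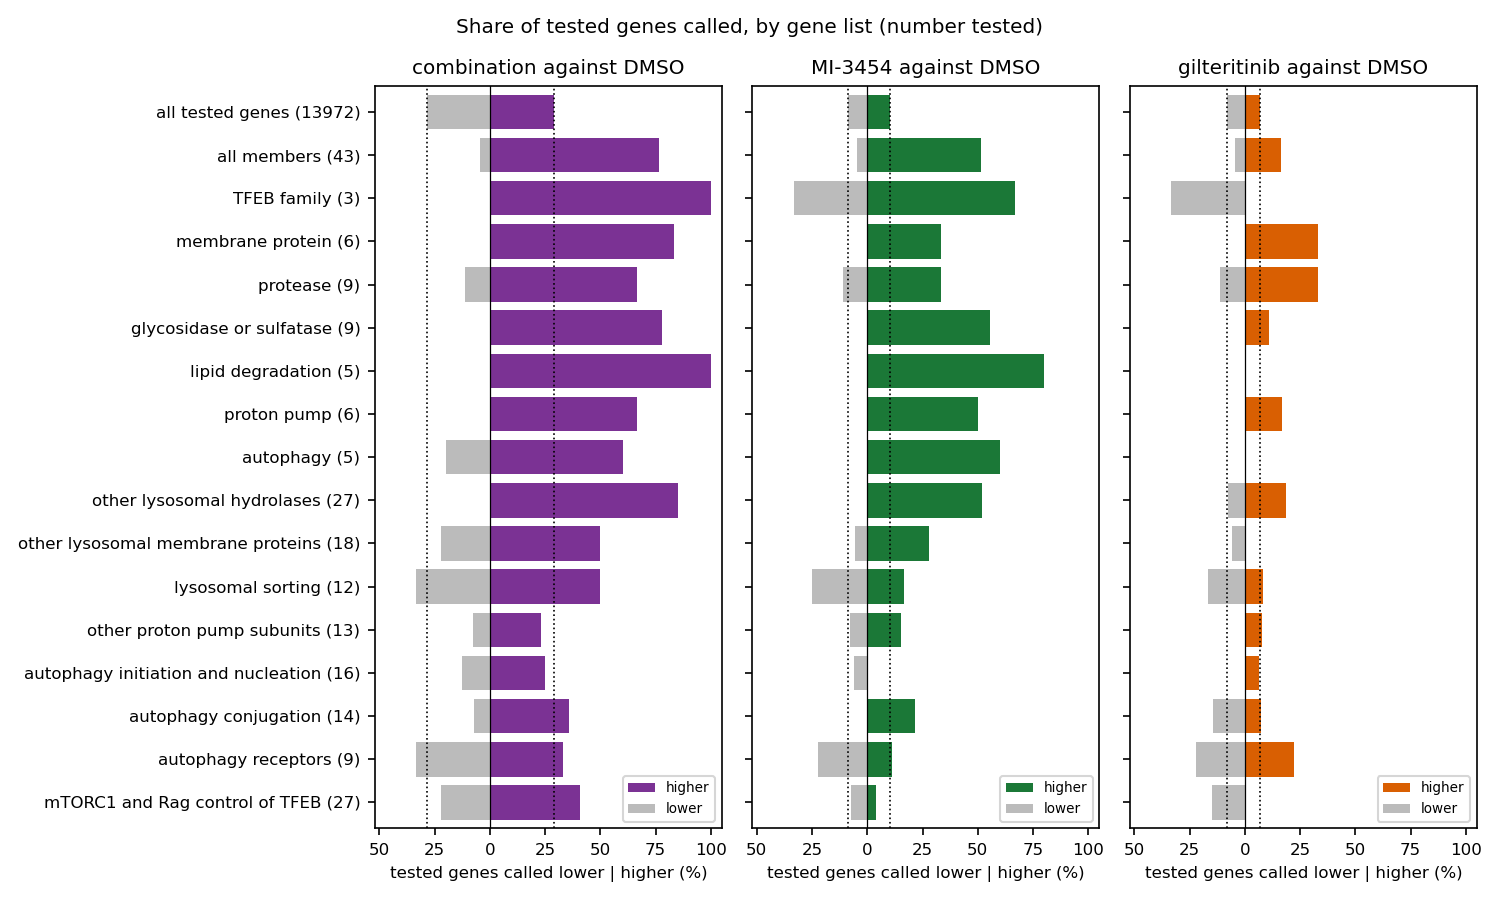
Percentage of tested genes called higher (coloured, right) and lower (grey, left) against DMSO, by gene list, for the combination, MI-3454 and gilteritinib; numbers in brackets are genes tested, and dotted lines mark the shares over all tested genes. In the combination, lipid-degrading genes reach 100% and the other lysosomal hydrolases 85.2%, while the autophagy initiation, conjugation and receptor lists stay between 25% and 35.7%, where all tested genes gave 29.2%.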

How the data were processed

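RNA from 12 libraries of MOLM-13 cells was analysed as 4 groups of 3, taken from the sample titles. The authors deposited raw counts of reads per gene, 1 file per library. Per the submitters' processing notes, cutadapt 2.1, STAR 2.7.1a, HTSeq 0.11.2 and DESeq2 were used with GRCh38; the annotation release is not given in the sources used here, nor is the strand setting. Rows for reads without a gene were left out of library sizes and tests, and their shares stand in the report. Gene names came from a separate list, which named 60340 of the 60668 entries. Coordinates and exon lengths came from GENCODE 29, in which exon overlap with other genes was checked for the 43 genes. GENCODE 29 held 58561 of the entries, so the counting used another annotation.

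Each pair of groups was fitted on its 6 libraries with edgeR 4.0.16 in R 4.3.3 (quasi-likelihood F test, TMM scaling, low-count filter over all 4 groups), and the interaction on all 12. P-values were adjusted by Benjamini-Hochberg over the 13972 genes tested, and genes were called at an adjusted p under 0.05. SE denotes the size of the log2 change divided by the root of the F statistic. The procedure was tested on simulated data. Alternatives were DESeq2 1.42.0 and its size factors, no filter, 1 fit of all libraries, the replicate block and each library left out; total-count scaling and leaving out the 4 libraries highest in RN7SL1 were chosen after seeing the data.

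The 43 genes and all lists were chosen with earlier results of these data known. All 43 could be named, and from each other list up to 4 called genes with the largest change in a comparison against DMSO; markers and the genes that a limit names were added to these. Replicate numbers came from the titles. Deviations from the group means of same-numbered gilteritinib and DMSO libraries correlated across genes at 0.14, 0.39 and 0.11. Gilteritinib 1 with DMSO 3 reached 0.21 and gilteritinib 3 with DMSO 1 reached 0.10. The remaining differently numbered pairs of these groups lay between -0.30 and -0.17. MI-3454 3 with DMSO 2 reached 0.51. In every pair of groups compared, the highest correlation joined the libraries highest in RN7SL1. Gilteritinib 2 with DMSO 2 reached 0.39, and these libraries share a number. Combination 1 reached 0.28 with DMSO 2, 0.35 with MI-3454 3 and 0.21 with gilteritinib 2, all differently numbered. The cause of these correlations was not tested. Whether the numbers mark pairs is not settled, and the block is an alternative only. In the other comparisons at least 1 same-numbered pair correlated under 0.1.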

Additional observations from a re-analysis of the deposited data

Results flagged for a closer look

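For 9 genes the effect of one agent differed with the other agent present, by the interaction term of the edgeR fit over all 12 libraries. The value is the log2 change in the combination minus the sum of both single log2 changes, each against DMSO. It was 1.57 for TFEB, 1.52 for CTSH, 0.75 for ASAH1, 0.75 for ATP6V0A1, 0.65 for SCARB2, 0.54 for MANBA, 0.49 for CTSB and 0.44 for PSAP, and -0.85 for CD63. Adjusted p-values ran from 2.03e-05 for TFEB to 0.0464 for PSAP. The genes have unlike patterns behind the same test. TFEB was called higher with both agents and lower with each. Its call in the combination ended without DMSO 3, and that with MI-3454 without any of DMSO 1, DMSO 2, MI-3454 1 or MI-3454 2. CTSH was called lower under all 3 treatments, and CD63 was called higher under all 3. For ATP6V0A1 no group's libraries overlapped with those of another group.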

How the results depend on the processing

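Over 3569 recomputed log2 changes of the 43 genes, 3282 kept their side of the threshold. Of the others, 184 kept the direction and lost the call and 103 gained a call. Among called changes 0 reversed, but the 3282 include changes without a call, whose direction may differ between settings. Member counts that moved by over 1.5 times were the following. In the combination against DMSO, 2 lower became 1 with the replicate block and with total counts, and 1 to 3 when libraries were left out. With MI-3454, 22 higher and 2 lower ranged over 14 to 22 and 1 to 3 when libraries were left out, and the replicate block gave 1 lower. With gilteritinib, 7 higher and 2 lower ranged over 2 to 14 and 2 to 4, the block gave 15 and 7, 1 fit of all libraries gave 4 lower, and leaving out the RN7SL1-rich libraries gave 14 and 5. Against MI-3454, 16 higher and 1 lower ranged over 7 to 23 and 0 to 2; the block gave 10 and 0, 1 fit gave 2 lower, total counts 0 lower and no RN7SL1-rich libraries 2 lower. Against gilteritinib, 1 lower ranged over 0 to 1 and was 0 in 1 fit, 0 with total counts and 2 without RN7SL1-rich libraries. For the interaction, 8 above the sum ranged over 5 to 8, and 1 below became 3 without RN7SL1-rich libraries. The block changed no other count by over 1.5 times. No label says that its numbers mark pairs, and outside gilteritinib against DMSO some same-numbered libraries did not deviate together. The cause of these moves was not tested; 3 libraries a group limit the precision, and leaving 1 out lowers it.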

Other observations

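With MI-3454 alone the share called in the 8 other pathway lists ran from 6.25% for autophagy initiation and nucleation to 51.9% for the hydrolases. Of all tested genes, 19% were called. The mTORC1 and Rag list, at 11.1%, also lay below that share. The hydrolases had 14 higher of 27 (51.9%, against 10.1% of all tested genes). PPT1, a palmitoyl thioesterase, averaged 276 ± 24 CPM with MI-3454 and 151 ± 9.3 CPM with DMSO (SD, n = 3 each; log2 change 0.87 ± 0.12, adjusted p = 0.000278 by edgeR). SORL1 averaged 182 ± 23 CPM with MI-3454 and 31.5 ± 3.2 CPM with DMSO (2.53 ± 0.14), SESN3 97.4 ± 21 and 12.4 ± 3.0 CPM (2.97 ± 0.21), and DDIT4 81.4 ± 13 and 418 ± 72 CPM (-2.36 ± 0.16). Of 16 initiation and nucleation genes 0 were higher and 1, WDR45B, lower (6.25% lower, against 8.95% of all tested genes).

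With gilteritinib alone, DDIT4 averaged 59.2 ± 1.8 CPM against 418 ± 72 CPM with DMSO (SD, n = 3 each; log2 change -2.82 ± 0.14, adjusted p = 8.14e-08) and SESN2 45.6 ± 0.31 against 140 ± 18 CPM (-1.61 ± 0.11). DNASE2 averaged 74.1 ± 3.3 CPM in the combination, 10.9 ± 0.073 CPM with gilteritinib and 25.7 ± 2.8 CPM with DMSO, so it was called lower with gilteritinib (-1.24 ± 0.13) and higher in the combination (1.53 ± 0.12). SGSH had calls in the same directions, at 6.51 ± 1.9 CPM in the combination, 0.658 ± 0.072 CPM with gilteritinib and 1.62 ± 0.26 CPM with DMSO. FUCA1 averaged 102 ± 4.9 CPM in the combination, 31.7 ± 1.8 CPM with MI-3454, 31.0 ± 5.3 CPM with gilteritinib and 16.2 ± 2.4 CPM with DMSO. CTNS was lower under all 3 treatments, at 16.9 ± 1.8 CPM in the combination, 21.8 ± 2.2 CPM with MI-3454, 18.8 ± 2.2 CPM with gilteritinib and 39.2 ± 1.6 CPM with DMSO.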
